A study of Homo sapiens with 8 samples.

Results

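Solute carriers are the large class of membrane proteins that move nutrients, ions, vitamins and metabolites across the cell and organelle membranes without hydrolysing ATP themselves. Their transcripts were followed in MCF10A, a non-tumorigenic human mammary epithelial line, after knockdown of the Hippo pathway kinases LATS1 and LATS2, of the tumour suppressor p53, or of both. The genes were chosen by symbol and by their deposited levels: an entry qualified when its name began with SLC, a family number, the letter A and a member number, and when its level exceeded the floor of 5 in at least 2 of the 8 libraries. The rule used no difference between groups. Of 343 entries with such a symbol among 29991 in the table, 186 qualified, 155 stood at the floor in all libraries and 2 were above it in a single library. The threshold passed SLC26A10, with at most 5.06, and left out SLC47A2, with 5.42 in siLATS1/2 replicate 1 only. Of the 186, 177 were above the floor in all 8 libraries and 9 in 2 to 7 of them, and none was above it in 1 group only. Of the 186, 7 carry the letters without being carriers themselves, among them SLC9A3R1, a scaffold protein, and these were kept as a group matched by symbol only. Counts of carriers over the 186 entries include them.

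The 4 groups were MCF10A cells that received siRNA against LATS1, LATS2 and p53 together (siLATS1/2/p53), against LATS1 and LATS2 (siLATS1/2), against p53 (sip53) or control siRNA (siControl). Each group had 2 libraries of polyadenylated RNA, one from each of 2 independently grown batches of cells, so replicate 1 of every group shares a batch and so does replicate 2. No allele or drug is named in the labels, and all groups went through a transfection. Values are deposited log2 levels, and a difference is the tested knockdown minus its comparator on that log2 scale, with its standard error.

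In the Hippo pathway the LATS kinases phosphorylate the coactivators YAP and TAZ, which otherwise enter the nucleus and act with TEAD transcription factors. The transcription factor p53 controls cell cycle arrest and also many metabolic genes. Epithelial cells rely on carriers for glucose, amino acids, lactate, choline and metals, and amino acid carriers such as SLC7A5 with SLC3A2 are abundant in growing epithelial cultures.

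The LATS1 and LATS2 transcripts were lower in the libraries labelled for them. LATS1 stood at 7.97 and 7.90 in siLATS1/2/p53, 7.93 and 8.10 in siLATS1/2, 9.87 and 9.94 in sip53 and 9.54 and 9.64 in siControl cells. LATS2 stood at 8.75 and 8.81, 8.72 and 8.63, 9.74 and 10, and 9.92 and 10.22 in the same order of groups. All 9 basal mammary markers were above the floor in every library, 1 or 2 of 7 fibroblast markers were, and 1 of 8 blood and endothelial markers was. Of the 7 luminal markers tested, 5 rose in siLATS1/2/p53 cells and 4 in siLATS1/2 cells against siControl, including KRT8 by 2.26 ± 0.38 and 1.98 ± 0.38 on the log2 scale. Among all tested entries 9.07% and 2.81% rose in these groups. With the batch as a block 6 luminal markers rose in each of them. Of the 9 basal markers, 4 fell in siLATS1/2/p53 and 0 passed in siLATS1/2 or sip53, and with the batch block 6 fell in siLATS1/2/p53, 8 fell in siLATS1/2, and 5 fell and 1 rose in sip53. Over all tested entries 5.48%, 4.89% and 2.1% fell in siLATS1/2/p53, siLATS1/2 and sip53 without the block. With it 39.2%, 32% and 26% were called in either direction. The part of these markers in the carrier results was not tested, and in RNA pooled from many cells fewer cells of a kind and less RNA per cell cannot be told apart. The fibroblast marker DCN split by batch: it stood at 8.39, 7.87, 9.53 and 9.86 in batch 1 and at 5, 5, 6.14 and 7.02 in batch 2, in the order siLATS1/2/p53, siLATS1/2, sip53 and siControl.

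The carriers gave 2.43% to 2.68% of the summed linear signal of a library, and 179 to 183 of them were above the floor in each. Because the deposited values are not scaled by transcript length, carriers were compared with each other only after the linear level was divided by the exonic length of the gene. On that per-kilobase scale SLC7A5, the large neutral amino acid transporter, led with 36766 and 41741 in siLATS1/2/p53, 37417 and 44438 in siLATS1/2, 30578 and 35154 in sip53 and 25595 and 35937 in siControl cells. Its partner SLC3A2, the heavy chain that anchors several amino acid carriers, came second with 7115 to 9871 over the 8 libraries. Below them lay SLC25A5, a mitochondrial ADP/ATP carrier, at 3489 to 4850, and SLC1A5, a glutamine carrier, at 3305 to 5176. The phosphate importer SLC20A1 lay at 2409 to 5195 and the amino acid carrier SLC38A2 at 2599 to 3726. SLC25A5, SLC1A5, SLC20A1, SLC38A2 and the lactate carrier SLC16A1 (2479 to 3307) overlap with neighbours in range and are not ordered beyond the spread of the libraries. The counting of SLC25A5 and SLC7A5 is uncertain, because near-identical copies of both exist in the genome.

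**Figure D1:**
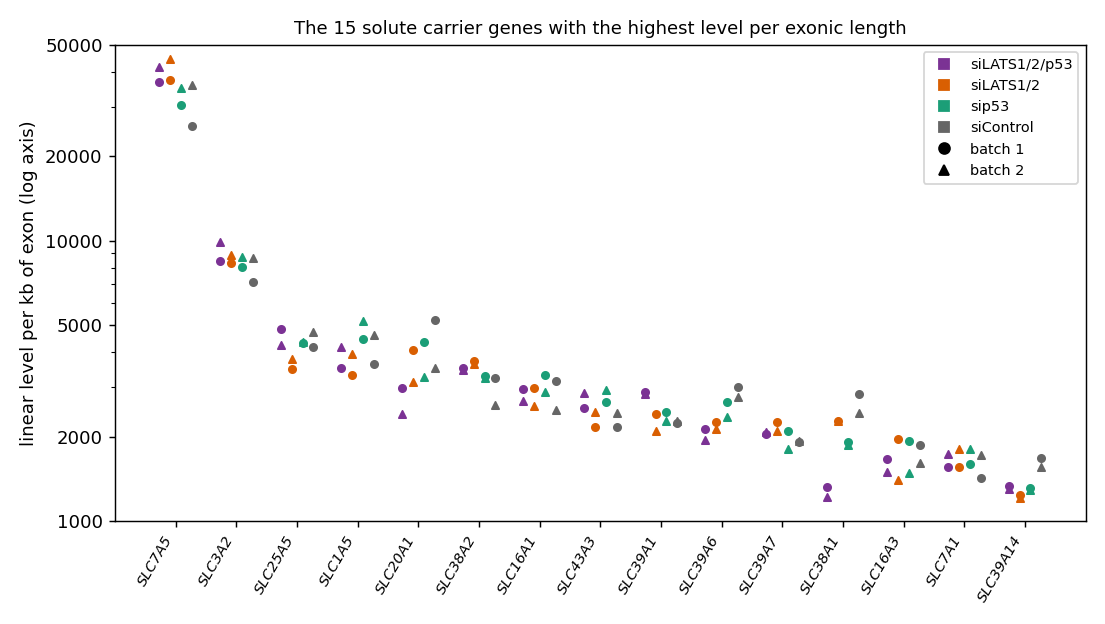
Linear level per kilobase of exon (log axis) of the 15 solute carrier genes that are highest on this scale, one point per library, with siLATS1/2/p53, siLATS1/2, sip53 and siControl from left to right at each gene; circles are batch 1 and triangles batch 2. SLC7A5 lies apart from the others at 25595 to 44438, and the SLC38A1 points of siLATS1/2/p53 cells (1320 and 1214) lie below those of siControl cells (2846 and 2431).

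Against siControl, 20 of the 186 entries rose and 15 fell in siLATS1/2/p53 cells (18.8% called; background over all 12315 tested entries 14.6%), with limma and Benjamini-Hochberg adjustment over all tested entries at a threshold of 0.05. In siLATS1/2 cells 12 rose and 9 fell (11.3%; background 7.7%). In sip53 cells 3 rose and 3 fell (3.23%; background 3.86%). For rises alone the carriers' share was 10.8% against 9.07% of all tested entries in siLATS1/2/p53, 6.45% against 2.81% in siLATS1/2 and 1.61% against 1.76% in sip53. For falls alone it was 8.06% against 5.48%, 4.84% against 4.89% and 1.61% against 2.1% in the same order. The median carrier differed from siControl by 0.11 in siLATS1/2/p53, 0.02 in siLATS1/2 and 0.09 in sip53 on the log2 scale, against 0.08, -0.07 and 0.06 for all tested entries. Every called carrier had the same sign in both batches, but the calls were made from these same libraries, so this is not a separate check. With the batch as a block 94 were called (50.5%; background 39.2%) in siLATS1/2/p53, 73 (39.2%; background 32%) in siLATS1/2 and 60 (32.3%; background 26%) in sip53, and the calls made without the block were all made with it too. After rescaling by medians of ratios 18 rose (background 3.55%) and 7 fell (background 2.83%) in siLATS1/2, and 1 rose (background 0.95%) and 5 fell (background 2.7%) in sip53. Rescaling kept 4 of the 6 calls in sip53. The 3 rises in sip53 before it were SLC6A9, SLC25A10 and SLC5A6, so those rises depend on the scaling. Counts for single substrate groups are to be read against these backgrounds, and they rest on few entries each.

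Fewer carriers were called when any single library was left out. These fits also have fewer residual degrees of freedom, and calls were lost even without libraries that the comparison does not use. A lost call therefore cannot be put down to the library left out alone. In siLATS1/2/p53 against siControl, 16 and 17 carriers were called without siLATS1/2/p53 replicate 1 or 2, and 19 without siControl replicate 1. In siLATS1/2 against siControl, 2 were called without either siLATS1/2 library, 5 and 4 without siControl replicate 1 or 2, and 10 without either sip53 library. In sip53 against siControl, 2 were called without siControl replicate 2 or without either siLATS1/2/p53 library, and 0 without any one of the other 5. Among the carriers called in all 8 fits that each lacked 1 library were SLC44A2 in siLATS1/2 and SLC44A2, SLC6A9, SLC38A1, SLC44A5, SLC39A9, SLC6A15, SLC12A7, SLC23A2, SLC25A1 and SLC37A1 in siLATS1/2/p53, and there was none in sip53. Every other call against siControl named below was lost in at least 1 of these 8 fits.

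**Figure D2:**
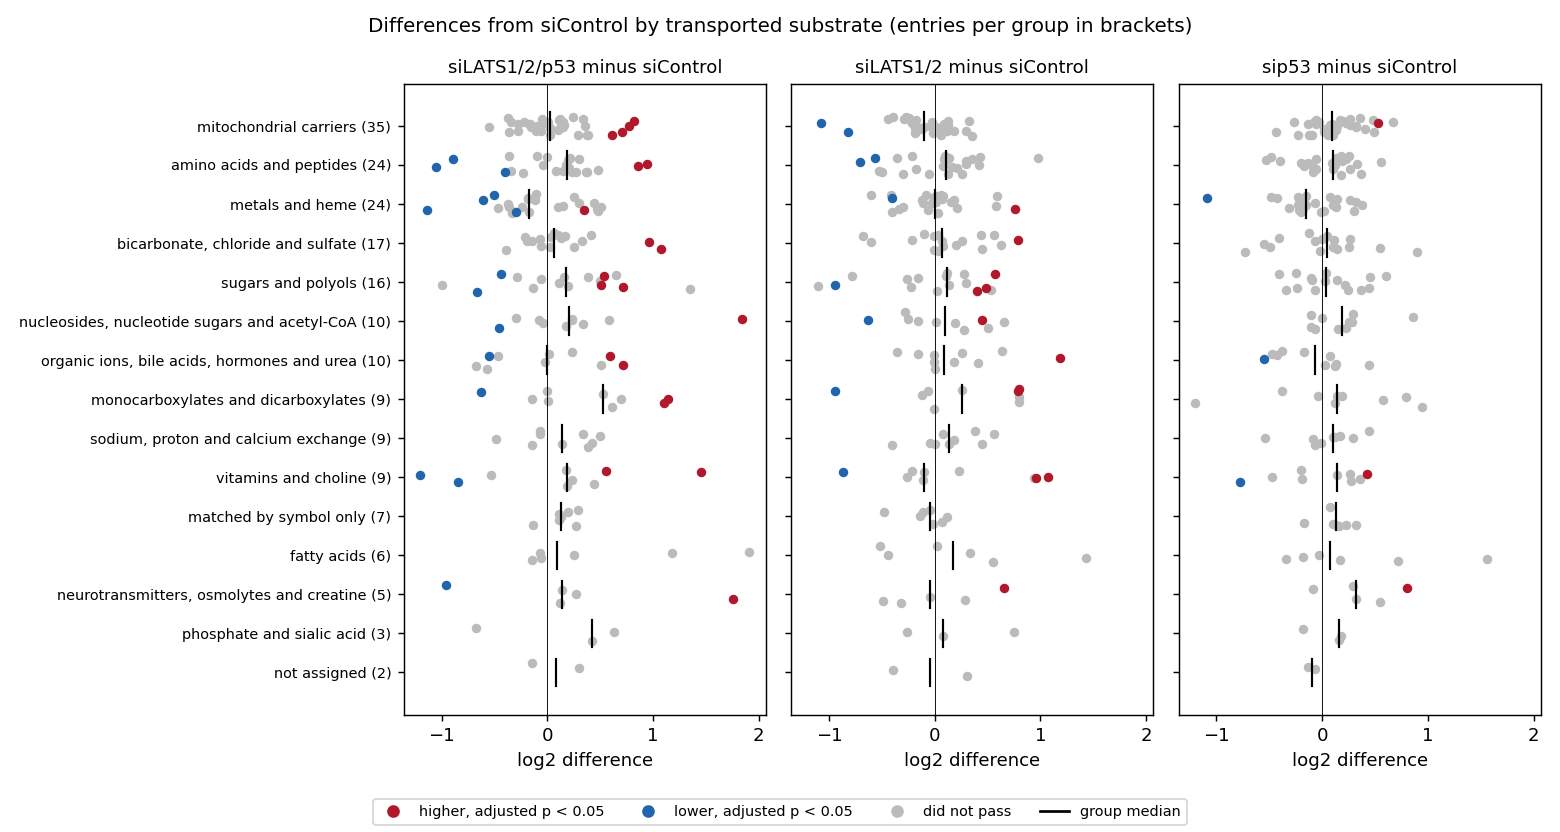
Log2 difference from siControl of each of the 186 entries (points), by transported substrate, for siLATS1/2/p53, siLATS1/2 and sip53 from left to right; red points rose and blue points fell at an adjusted p under 0.05, grey points did not pass, and the black bar is the group's median. In siLATS1/2/p53 called points lie on both sides of 0 for amino acid, metal and sugar carriers, while the called mitochondrial carriers all rose. The highest called points are SLC28A3 (1.84) and SLC6A9 (1.76) in siLATS1/2/p53.

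Carnitine and other organic ions. SLC22A5, the plasma membrane carnitine transporter, stood at 12.04 and 11.69 in siLATS1/2/p53, 11.95 and 11.62 in siLATS1/2, 11.33 and 11.08 in sip53 and 11.26 and 11.02 in siControl cells. It rose in siLATS1/2/p53 by 0.72 ± 0.17 (adjusted p = 0.0309), and in siLATS1/2 the difference was 0.64 ± 0.17 (adjusted p = 0.0631; with the batch block 1.21e-05). Of the 10 entries in this group, 2 rose and 1 fell in siLATS1/2/p53, 1 rose in siLATS1/2 and 1 fell in sip53, and the fall in siLATS1/2/p53 was SLC22A15 at -0.55 ± 0.14. The batch block gave 4 rises and 3 falls in siLATS1/2/p53, 2 rises in siLATS1/2, and 1 rise and 3 falls in sip53.

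Choline and vitamins. This group of 9 held several of the largest differences, in both directions. SLC44A2, a choline transporter of plasma and mitochondrial membranes, stood at 11.67 and 11.74 in siLATS1/2/p53, 11.23 and 11.42 in siLATS1/2, 10.52 and 10.51 in sip53 and 10.20 and 10.31 in siControl cells, so that all siLATS1/2 and siLATS1/2/p53 libraries lie above all others. It rose by 1.45 ± 0.09 in siLATS1/2/p53 (2.73-fold; adjusted p = 0.000686) and by 1.07 ± 0.09 in siLATS1/2 (adjusted p = 0.00232). Other members of the choline transporter-like family moved differently. SLC44A5 stood at 9.07 and 9.03 in siLATS1/2/p53, 10 and 9.98 in siLATS1/2, 9.53 and 9.41 in sip53 and 10.40 and 10.10 in siControl cells, and it fell by 1.2 ± 0.12 in siLATS1/2/p53 (adjusted p = 0.00209) and by 0.78 ± 0.12 in sip53 (adjusted p = 0.0265). SLC44A1, the ubiquitous member, stood at 11.31 and 10.84 in siLATS1/2/p53, 10.84 and 10.65 in siLATS1/2, 12.05 and 11.70 in sip53 and 11.81 and 11.41 in siControl cells, and fell by 0.87 ± 0.20 in siLATS1/2 (adjusted p = 0.0464). Its difference in sip53 was 0.27 ± 0.20 (adjusted p = 0.499; with the batch block 0.0233). SLC44A3, of the same family, differed by 0.94 ± 0.36 in siLATS1/2 (adjusted p = 0.157; with the batch block 0.00467). SLC44A2 and SLC44A1 thus moved in opposite directions in siLATS1/2 cells, and SLC44A2 and SLC44A5 did so in siLATS1/2/p53 cells.

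SLC46A1, the proton-coupled folate transporter, stood at 9.50 and 9.73 in siLATS1/2/p53, 10.34 and 10.42 in siLATS1/2, 9.26 and 9.16 in sip53 and 9.40 and 9.43 in siControl cells. It rose by 0.96 ± 0.11 in siLATS1/2 (1.95-fold; adjusted p = 0.00542), while in siLATS1/2/p53 the difference was 0.19 ± 0.11 (adjusted p = 0.28), and the combined knockdown differed from siLATS1/2 by -0.77 ± 0.11 (adjusted p = 0.00784). SLC19A2, a thiamine transporter, stood at 10.53 and 10.34 in siLATS1/2/p53, 11.20 and 11.12 in siLATS1/2, 10.84 and 10.77 in sip53 and 11.46 and 11.09 in siControl cells. The combined knockdown was lowest, and the fall against siControl was -0.84 ± 0.13 (adjusted p = 0.00877). SLC23A2, a vitamin C transporter, rose by 0.56 ± 0.08 in siLATS1/2/p53 (11.68 and 11.63, against 11.14 and 11.04 in siControl; adjusted p = 0.00589). SLC5A6, which takes up biotin and pantothenate, rose by 0.42 ± 0.08 in sip53 (12.16 and 12.17, against 11.72 and 11.77 in siControl; adjusted p = 0.0429). In total 2 of the 9 rose and 2 fell in siLATS1/2/p53, 2 rose and 1 fell in siLATS1/2, and 1 rose and 1 fell in sip53, and with the batch block 3 and 3, 4 and 1, and 4 and 2 did so in that order.

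**Figure D3:**
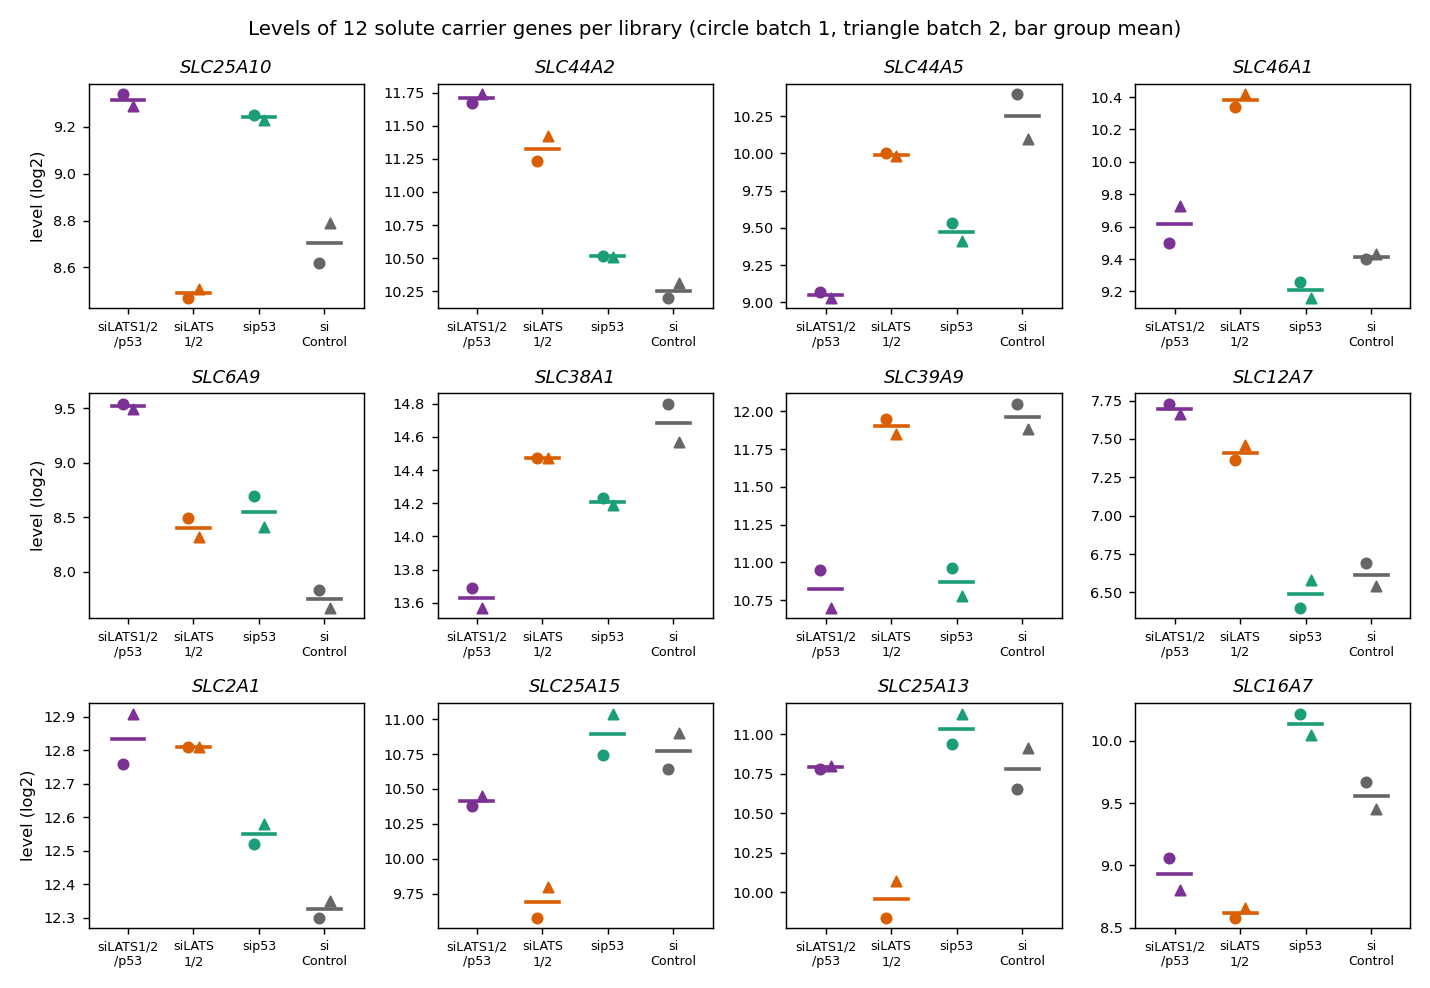
Level (log2) of 12 solute carrier genes in each of the 8 libraries, with siLATS1/2/p53, siLATS1/2, sip53 and siControl from left to right; circles are batch 1, triangles batch 2 and bars the mean of the 2 libraries, and each panel has its own axis. SLC44A2 lies at 11.23 to 11.74 in the 4 libraries with LATS1/2 knockdown and at 10.20 to 10.52 in the other 4, and SLC39A9 lies at 10.70 to 10.96 in the 4 libraries with p53 knockdown and at 11.85 to 12.05 in the other 4.

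Glycine, monoamines and osmolytes. SLC6A9, the plasma membrane glycine transporter, stood at 9.54 and 9.49 in siLATS1/2/p53, 8.49 and 8.32 in siLATS1/2, 8.69 and 8.41 in sip53 and 7.83 and 7.67 in siControl cells. It rose in each knockdown, by 1.76 ± 0.14 in siLATS1/2/p53 (3.39-fold; adjusted p = 0.00117), 0.66 ± 0.14 in siLATS1/2 (adjusted p = 0.0373) and 0.80 ± 0.14 in sip53 (adjusted p = 0.034). The interaction, which asks whether the combined knockdown departs from the sum of the single ones, was 0.31 with a 95% interval from -0.16 to 0.77. SLC18A2, the vesicular monoamine transporter, fell in siLATS1/2/p53 by 0.96 ± 0.18 (adjusted p = 0.016), with 8.16 and 7.87 against 9.20 and 8.75 in siControl. Of its exonic bases 52% are shared with another tested gene, so its reads there cannot be told apart from that gene's without strand. SLC6A6, the taurine transporter, stood at 12.41 and 12.15 in siLATS1/2/p53, 11.95 and 11.73 in siLATS1/2, 12.77 and 12.65 in sip53 and 12.31 and 12.02 in siControl cells. Its sip53 difference of 0.55 ± 0.14 had an adjusted p of 0.0769, and 7.78e-05 with the batch block. Of the 5 entries in this group, 1 rose and 1 fell in siLATS1/2/p53, 1 rose in siLATS1/2 and 1 rose in sip53. The batch block left the count in siLATS1/2/p53 as it was and gave 1 rise and 2 falls in siLATS1/2 and 3 rises in sip53.

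Amino acids and peptides. Of 24 entries, 2 rose and 3 fell in siLATS1/2/p53, 2 fell in siLATS1/2 and 0 passed in sip53, and with the batch block 8 and 4, 6 and 6, and 2 and 3 rose and fell in that order. SLC38A1, a sodium-coupled carrier of glutamine and other neutral amino acids, stood at 13.69 and 13.57 in siLATS1/2/p53, 14.47 and 14.47 in siLATS1/2, 14.23 and 14.19 in sip53 and 14.80 and 14.57 in siControl cells. It fell by 1.05 ± 0.11 in siLATS1/2/p53 (2.08-fold lower; adjusted p = 0.00206), with every combined-knockdown library below every other library. SLC6A15, a carrier of branched-chain amino acids and proline, was also lowest in the combined knockdown, at 12.01 and 11.90 in siLATS1/2/p53, 12.59 and 12.51 in siLATS1/2, 12.49 and 12.41 in sip53 and 12.99 and 12.71 in siControl cells. It fell by 0.89 ± 0.11 in siLATS1/2/p53 (adjusted p = 0.00361). SLC36A4, a high-affinity amino acid carrier, fell by 0.40 ± 0.10 in siLATS1/2/p53 (adjusted p = 0.0405) and by 0.56 ± 0.10 in siLATS1/2 (adjusted p = 0.0229).

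The 2 rises in siLATS1/2/p53 belonged to the SLC1 family. SLC1A4, a carrier of alanine, serine and cysteine, stood at 8.22 and 8.16 in siLATS1/2/p53, 7.5 and 7.29 in siLATS1/2, 7.67 and 7.56 in sip53 and 7.33 and 7.17 in siControl cells, a rise of 0.94 ± 0.14 (adjusted p = 0.00777). SLC1A3, a glutamate and aspartate carrier, stood at 11.49 and 11.31 in siLATS1/2/p53, 11.03 and 10.87 in siLATS1/2, 11.20 and 10.98 in sip53 and 10.71 and 10.36 in siControl cells, a rise of 0.86 ± 0.15 (adjusted p = 0.0109). Its differences of 0.42 ± 0.15 in siLATS1/2 and 0.56 ± 0.15 in sip53 had adjusted p = 0.127 and 0.0855, and 0.000959 and 0.000159 with the batch block. The cationic amino acid carrier SLC7A2 stood at 11.30 and 11.13 in siLATS1/2/p53, 10.62 and 10.40 in siLATS1/2, 11.42 and 11.20 in sip53 and 11.37 and 11.07 in siControl cells. It fell by 0.71 ± 0.14 in siLATS1/2 (adjusted p = 0.0297), and both siLATS1/2 libraries lie below all others.

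The promoter of SLC1A3 is shown because it is the only one, of 151 carrier promoters available from RefSeq (GRCh38.p14), that holds the letters TGATGCAA on either strand, the core of the amino acid response element bound by ATF4. Among all 27305 promoters of the same length (250 bases before to 50 after the gene's start) 0.923% hold it, against 0.662% of the carriers' promoters. The match, in capitals, lies in the plus strand of chr5:36596338-36596637 and is a description of the sequence.
SLC1A3: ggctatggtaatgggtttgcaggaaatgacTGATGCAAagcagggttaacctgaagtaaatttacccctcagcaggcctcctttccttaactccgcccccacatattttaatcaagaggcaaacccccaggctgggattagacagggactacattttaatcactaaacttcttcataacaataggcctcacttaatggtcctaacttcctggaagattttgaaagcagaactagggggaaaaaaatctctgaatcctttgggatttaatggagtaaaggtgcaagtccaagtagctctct

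SLC38A1 passed in siLATS1/2/p53, as given above, but SLC7A5, SLC3A2, SLC1A5 and SLC7A11 did not pass in any knockdown without the batch block. SLC7A5 stood at 17.41 and 17.60 in siLATS1/2/p53, 17.44 and 17.69 in siLATS1/2, 17.15 and 17.35 in sip53 and 16.89 and 17.38 in siControl cells, with differences of 0.37 ± 0.22, 0.43 ± 0.22 and 0.11 ± 0.22 and adjusted p of 0.302, 0.275 and 0.823. The siControl libraries, which come from different batches, span more than the siLATS1/2 difference. Within batches 1 and 2 the differences were 0.52 and 0.22, 0.55 and 0.31, and 0.26 and -0.03 in the same order of knockdowns. With the batch block the adjusted p was 0.00963, 0.00538 and 0.44. SLC3A2 differed by 0.22 ± 0.14, 0.13 ± 0.14 and 0.10 ± 0.14 in the same order of knockdowns, and SLC1A5 by -0.10 ± 0.16, -0.18 ± 0.16 and 0.23 ± 0.16. With the block SLC3A2 passed in siLATS1/2/p53 (adjusted p = 0.0346) and SLC1A5 in siLATS1/2 and sip53 (0.0483 and 0.018). SLC7A11, the cystine and glutamate exchanger, is known as a gene that p53 represses. It stood at 11.28 and 10.97 in siLATS1/2/p53, 12.08 and 11.52 in siLATS1/2, 10.44 and 10.15 in sip53 and 11.28 and 10.36 in siControl cells, and the siControl libraries overlap with those of siLATS1/2/p53 and sip53. Its difference was 0.98 ± 0.31 in siLATS1/2 (adjusted p = 0.101; with the batch block 3.98e-05) and -0.53 ± 0.31 in sip53 (adjusted p = 0.376; with the batch block 0.00587), a lower level in sip53 in both batches.

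Sugars. Of 16 entries, 3 rose and 2 fell in siLATS1/2/p53, 3 rose and 1 fell in siLATS1/2, and 0 passed in sip53, and with the batch block 6 and 4, 3 and 4, and 4 and 2 rose and fell in that order. SLC2A1, the main glucose importer GLUT1, stood at 12.76 and 12.91 in siLATS1/2/p53, 12.81 and 12.81 in siLATS1/2, 12.52 and 12.58 in sip53 and 12.30 and 12.35 in siControl cells. It rose by 0.51 ± 0.08 in siLATS1/2/p53 (adjusted p = 0.00902) and by 0.49 ± 0.08 in siLATS1/2 (adjusted p = 0.0177), and all libraries with LATS1/2 knockdown lie above the others. SLC37A1, a glucose-6-phosphate and phosphate antiporter, stood at 10.33 and 10.38 in siLATS1/2/p53, 10.26 and 10.18 in siLATS1/2, 9.88 and 9.82 in sip53 and 9.81 and 9.83 in siControl cells. It rose by 0.54 ± 0.09 (adjusted p = 0.00876) and 0.40 ± 0.09 (adjusted p = 0.0362) in siLATS1/2/p53 and siLATS1/2. Its relative SLC37A2 stood at 10.94 and 11.37 in siLATS1/2/p53, 10.89 and 10.87 in siLATS1/2, 11.38 and 11.58 in sip53 and 11.77 and 11.86 in siControl cells. SLC37A2 fell by 0.66 ± 0.14 (adjusted p = 0.0243) and by 0.94 ± 0.14 (adjusted p = 0.0134), the direction opposite to SLC37A1. The sugar carrier SLC50A1 rose by 0.72 ± 0.17 in siLATS1/2/p53 (adjusted p = 0.0305), SLC45A4 rose by 0.57 ± 0.12 in siLATS1/2 (adjusted p = 0.0347) and SLC45A3 fell by 0.44 ± 0.11 in siLATS1/2/p53 (adjusted p = 0.0408). SLC2A3, the glucose importer GLUT3, did not pass (with the batch block it did in siLATS1/2, at -0.78, adjusted p = 0.00119) and stood apart by batch, at 9.80, 9.43, 10.10 and 10.13 in batch 1 and 8.36, 7.43, 8.79 and 8.29 in batch 2, in the order siLATS1/2/p53, siLATS1/2, sip53 and siControl.

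Metals and heme. Of 24 entries, 1 rose and 4 fell in siLATS1/2/p53 (falls over all tested entries 5.48%), 1 rose and 1 fell in siLATS1/2, and 1 fell in sip53. The batch block gave 6 rises and 10 falls in siLATS1/2/p53, and 3 rises and 6 falls in each of siLATS1/2 and sip53. SLC39A9, a zinc transporter of the secretory pathway, stood at 10.95 and 10.70 in siLATS1/2/p53, 11.95 and 11.85 in siLATS1/2, 10.96 and 10.78 in sip53 and 12.05 and 11.88 in siControl cells. It fell by 1.14 ± 0.12 in siLATS1/2/p53 (2.20-fold lower; adjusted p = 0.00232) and by 1.09 ± 0.12 in sip53 (2.13-fold lower; adjusted p = 0.00913), and in siLATS1/2 the difference was -0.06 ± 0.12. The libraries with p53 siRNA thus form a low set and the others a high set, and the interaction was 0.02 with a 95% interval from -0.38 to 0.41. SLC39A14, an importer of zinc, iron and manganese, stood at 13.17 and 13.13, 13.07 and 13.04, 13.16 and 13.13, and 13.51 and 13.40 in siLATS1/2/p53, siLATS1/2, sip53 and siControl cells. It fell by 0.30 ± 0.08 in siLATS1/2/p53 (adjusted p = 0.0444) and by 0.40 ± 0.08 in siLATS1/2 (adjusted p = 0.0293). SLC39A6, a zinc importer, fell by 0.50 ± 0.10 and SLC30A9 by 0.61 ± 0.12 in siLATS1/2/p53 (adjusted p = 0.0176 and 0.0196), while SLC39A1, another zinc importer, rose by 0.35 ± 0.09 (adjusted p = 0.0476). SLC30A1, the zinc exporter of the plasma membrane, did not pass, with 11.19 and 11.06 in siLATS1/2/p53, 11.13 and 11.13 in siLATS1/2, 11.05 and 11 in sip53 and 11.30 and 11.19 in siControl cells, though its sip53 difference of -0.22 ± 0.08 did with the batch block (adjusted p = 0.0332). SLC48A1, a heme transporter, stood at 9.04 and 9.05 in siLATS1/2/p53, 9.39 and 9.28 in siLATS1/2, 9.01 and 8.66 in sip53 and 8.57 and 8.58 in siControl cells. It rose by 0.76 ± 0.14 in siLATS1/2 (adjusted p = 0.0223), and in siLATS1/2/p53 the difference was 0.47 ± 0.14 (adjusted p = 0.0595; with the batch block 0.00523).

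SLC37A1 and SLC48A1 are the carriers that rose in siLATS1/2 and whose promoter holds GGAATG on either strand, the core letters of the site bound by TEAD factors, and their promoters are shown for that reason. Of the 7 carriers that rose in siLATS1/2 and have a RefSeq promoter, 2 held these letters, and of the 16 that rose in siLATS1/2/p53, 3 did. Among all 27305 promoters 14% held them, and among the 151 carrier promoters 11.3%. Both windows are given on the plus strand of GRCh38.p14, chr21:42499372-42499671 and chr12:47772988-47773287, and the capitals mark the match, which reads as its reverse complement here.
SLC37A1: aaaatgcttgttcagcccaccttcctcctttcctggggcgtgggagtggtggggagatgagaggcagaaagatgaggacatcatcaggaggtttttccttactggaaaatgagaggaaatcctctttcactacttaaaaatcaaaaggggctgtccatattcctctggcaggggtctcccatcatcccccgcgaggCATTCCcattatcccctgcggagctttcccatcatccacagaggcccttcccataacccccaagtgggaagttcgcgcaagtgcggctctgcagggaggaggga
SLC48A1: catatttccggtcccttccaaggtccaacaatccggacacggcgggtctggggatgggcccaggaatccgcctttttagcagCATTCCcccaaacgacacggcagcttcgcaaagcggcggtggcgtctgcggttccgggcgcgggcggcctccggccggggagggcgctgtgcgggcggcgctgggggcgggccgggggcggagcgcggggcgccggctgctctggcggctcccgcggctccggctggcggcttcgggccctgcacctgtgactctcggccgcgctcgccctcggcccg
The p53 half-site, searched by its consensus on both strands, matched in 2.65% of the carrier promoters and in 6.54% of all promoters. These shares describe the windows searched.

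Mitochondrial carriers. The SLC25 family moves metabolites across the inner mitochondrial membrane. Of 35 entries, 4 rose in siLATS1/2/p53, 2 fell in siLATS1/2 and 1 rose in sip53, and with the batch block 7 and 4, 1 and 7, and 7 and 1 rose and fell in that order. SLC25A15, the ornithine and citrulline exchanger of the urea cycle, stood at 10.38 and 10.45 in siLATS1/2/p53, 9.58 and 9.80 in siLATS1/2, 10.74 and 11.04 in sip53 and 10.64 and 10.90 in siControl cells. It fell by 1.08 ± 0.14 in siLATS1/2 (2.12-fold lower; adjusted p = 0.00815), with siLATS1/2 lowest in both batches. SLC25A13, the aspartate and glutamate carrier citrin, stood at 10.78 and 10.80 in siLATS1/2/p53, 9.84 and 10.07 in siLATS1/2, 10.94 and 11.13 in sip53 and 10.65 and 10.91 in siControl cells. It fell by 0.82 ± 0.13 in siLATS1/2 (adjusted p = 0.0136), and the combined knockdown differed from siControl by 0.01 ± 0.13. The citrate carrier SLC25A1 stood at 10.12 and 9.95 in siLATS1/2/p53, 9.58 and 9.65 in siLATS1/2, 9.52 and 9.33 in sip53 and 9.23 and 9.28 in siControl cells. It rose by 0.77 ± 0.11 in siLATS1/2/p53 (adjusted p = 0.00616). SLC25A10, the dicarboxylate carrier, stood at 9.34 and 9.29 in siLATS1/2/p53, 8.47 and 8.51 in siLATS1/2, 9.25 and 9.23 in sip53 and 8.62 and 8.79 in siControl cells. It rose by 0.61 ± 0.11 in siLATS1/2/p53 (adjusted p = 0.0133) and by 0.53 ± 0.11 in sip53 (adjusted p = 0.0452), so both groups with p53 siRNA lie above both groups without it. The other 2 rises in siLATS1/2/p53 were SLC25A29, a carrier of basic amino acids, by 0.82 ± 0.16, and SLC25A23, a calcium-regulated ATP and phosphate carrier, by 0.71 ± 0.14.

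Monocarboxylates. The lactate carriers SLC16A1 (MCT1) and SLC16A3 (MCT4) did not pass in any knockdown. SLC16A1 stood at 13.94 and 13.80 in siLATS1/2/p53, 13.95 and 13.74 in siLATS1/2, 14.10 and 13.91 in sip53 and 14.04 and 13.68 in siControl cells. SLC16A3 differed by -0.14 ± 0.19, -0.06 ± 0.19 and -0.04 ± 0.19 in siLATS1/2/p53, siLATS1/2 and sip53. SLC16A7 (MCT2), a pyruvate and lactate carrier of high affinity, stood at 9.06 and 8.80 in siLATS1/2/p53, 8.58 and 8.66 in siLATS1/2, 10.22 and 10.05 in sip53 and 9.67 and 9.45 in siControl cells. It fell by 0.63 ± 0.14 in siLATS1/2/p53 (adjusted p = 0.0239) and by 0.94 ± 0.14 in siLATS1/2 (adjusted p = 0.0112). In sip53 its difference was 0.58 ± 0.14 (adjusted p = 0.0648; with the batch block 0.00148), above siControl in both batches. SLC16A13 rose in siLATS1/2 by 0.80 ± 0.17 and SLC16A6 by 0.79 ± 0.18 (adjusted p = 0.0387 and 0.0401). SLC16A9, which transports carnitine, stood at 9.17 and 9 in siLATS1/2/p53, 8.09 and 7.56 in siLATS1/2, 9.14 and 8.64 in sip53 and 8.25 and 7.64 in siControl cells, and rose in siLATS1/2/p53 by 1.14 ± 0.27 (adjusted p = 0.0333). SLC16A14 rose in siLATS1/2/p53 by 1.10 ± 0.20 (adjusted p = 0.0146), with 9.77 and 9.41 against 8.69 and 8.29 in siControl cells. Of the 9 entries, 2 rose and 1 fell in siLATS1/2/p53, 2 rose and 1 fell in siLATS1/2, and 0 passed in sip53, and with the batch block 5 and 1, 4 and 1, and 3 and 1 rose and fell in that order.

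Nucleosides and nucleotide sugars. SLC28A3, a concentrative nucleoside importer, had the highest called difference of any carrier. It stood at 8.43 and 8.27 in siLATS1/2/p53, 7.66 and 6.69 in siLATS1/2, 7.61 and 7.15 in sip53 and 6.56 and 6.47 in siControl cells, and rose in siLATS1/2/p53 by 1.84 ± 0.31 (3.58-fold; adjusted p = 0.0107). The single knockdowns differed from siControl by 0.66 ± 0.31 and 0.86 ± 0.31 (adjusted p = 0.233 in siLATS1/2 and 0.169 in sip53; with the batch block 0.0162 and 0.00451). SLC29A2, an equilibrative nucleoside carrier, rose in siLATS1/2 by 0.45 ± 0.10 (adjusted p = 0.0418). SLC35A1, which brings CMP-sialic acid into the Golgi, stood at 8.98 and 8.92 in siLATS1/2/p53, 8.75 and 8.81 in siLATS1/2, 9.73 and 9.60 in sip53 and 9.52 and 9.30 in siControl cells. It fell by 0.46 ± 0.12 in siLATS1/2/p53 (adjusted p = 0.0381) and by 0.63 ± 0.12 in siLATS1/2 (adjusted p = 0.0235). Of the 10 entries, 1 rose and 1 fell in siLATS1/2/p53 and likewise in siLATS1/2, and 0 passed in sip53. The batch block gave 4 rises and 2 falls in siLATS1/2/p53, the same numbers in siLATS1/2, and 3 rises in sip53.

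Inorganic ions. SLC12A7, the potassium chloride cotransporter KCC4, stood at 7.73 and 7.66 in siLATS1/2/p53, 7.36 and 7.46 in siLATS1/2, 6.4 and 6.58 in sip53 and 6.69 and 6.54 in siControl cells. It rose by 1.08 ± 0.15 in siLATS1/2/p53 (2.12-fold; adjusted p = 0.00487) and by 0.79 ± 0.15 in siLATS1/2 (adjusted p = 0.0239), with no overlap between libraries with and without LATS1/2 siRNA. SLC4A11, a membrane transporter of the bicarbonate transporter family, rose in siLATS1/2/p53 by 0.96 ± 0.15 (9.41 and 9.67, against 8.41 and 8.75 in siControl; adjusted p = 0.0078). Those were the calls among 17 carriers of bicarbonate, chloride and sulfate, and 0 passed in sip53, while with the batch block 5 and 2, 5 and 1, and 3 and 4 rose and fell in siLATS1/2/p53, siLATS1/2 and sip53. The widely expressed cotransporter SLC12A4 (KCC1) differed by -0.39 ± 0.15, -0.01 ± 0.15 and -0.55 ± 0.15 in siLATS1/2/p53, siLATS1/2 and sip53 (adjusted p = 0.123, 0.991 and 0.0897; with the batch block 0.000618, 0.957 and 0.000103). None of the 9 sodium, proton and calcium exchangers passed, and none of the 3 phosphate and sialic acid carriers did. The batch block changed this: of the exchangers 3 rose and 1 fell in siLATS1/2/p53, 2 rose in siLATS1/2, and 1 rose and 1 fell in sip53, and of the phosphate and sialic acid carriers 2 rose and 1 fell in siLATS1/2/p53, 1 rose and 1 fell in siLATS1/2 and 0 passed in sip53. The phosphate importer SLC20A1 stood at 14.02 and 13.71 in siLATS1/2/p53, 14.48 and 14.09 in siLATS1/2, 14.56 and 14.16 in sip53 and 14.82 and 14.26 in siControl cells. Its difference in siLATS1/2/p53 was -0.67 ± 0.24 (adjusted p = 0.101; with the batch block 8.21e-06), and -0.80 and -0.54 within batches 1 and 2.

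None of the 6 fatty acid entries passed, and this group shows how far the batches of cells stand apart. With the batch block 2 rose in siLATS1/2/p53, 1 rose and 2 fell in siLATS1/2 and 2 rose in sip53. SLC27A2, an acyl-CoA synthetase of the fatty acid transport protein family, stood at 9.31, 8.70, 9.05 and 7.61 in batch 1 and at 8.28, 7.94, 7.85 and 6.17 in batch 2, in the order siLATS1/2/p53, siLATS1/2, sip53 and siControl. In each batch siControl was lowest. The differences from siControl were 1.91 ± 0.60, 1.43 ± 0.60 and 1.56 ± 0.60 for siLATS1/2/p53, siLATS1/2 and sip53, with adjusted p = 0.0756, 0.193 and 0.195, and 4.26e-07, 1.04e-05 and 9.72e-06 with the batch block. In batch 2 minus batch 1, averaged over the 4 groups, SLC27A6 differed by -1.75, SLC2A3 by -1.65, the sulfate carrier SLC26A2 by -1.12, SLC27A2 by -1.11 and SLC16A4 by -1.01. Over all carriers, 105 of 186 (56.5%) had the same sign of this difference in all 4 groups, 36 higher and 69 lower in batch 2, and among all tested entries 44.7% did.

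**Figure D4:**
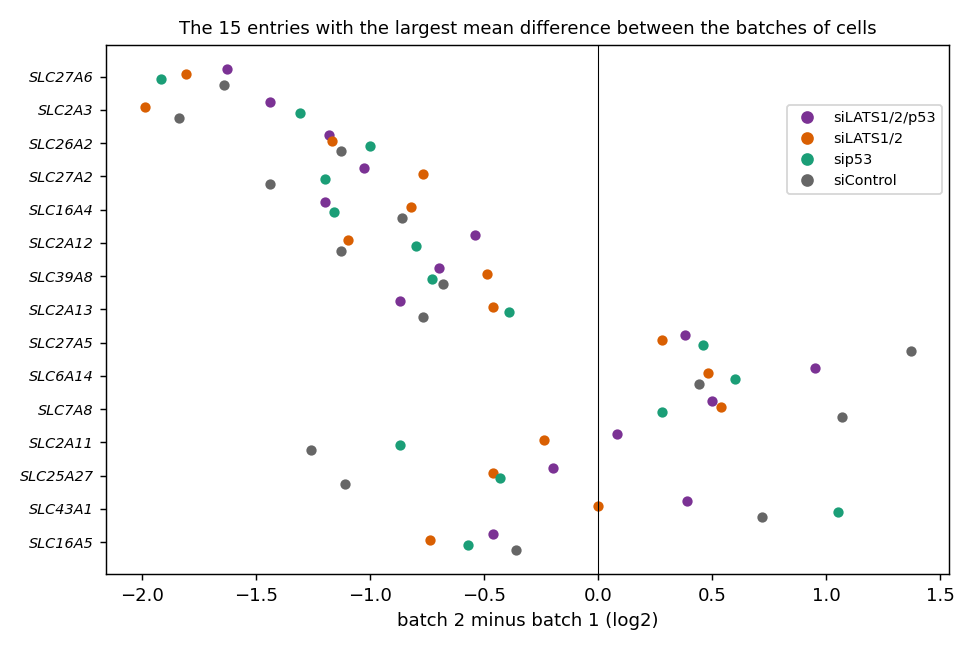
Batch 2 minus batch 1 (log2) within each of the 4 groups (colours) for the 15 entries with the largest mean difference between the batches of cells. SLC27A6, SLC2A3 and SLC26A2 lie at or below -1 in all 4 groups.

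The combined knockdown was also set against each single one. Relative to siLATS1/2, 18 entries rose (9.68%, background 11.3%) and 9 fell (4.84%, background 3.22%) in siLATS1/2/p53, 27 in all (14.5%, background 14.5%). Of the 18 that rose, 1 was in the group matched by symbol only. With the batch block 85 were called (45.7%, background 43.5%). This comparison asks what p53 siRNA adds to LATS1/2 knockdown. The median of all tested entries in it was 0.15, and after rescaling by medians of ratios, which brings that median to 0, 7 rose (background 4.44%) and 13 fell (background 5.3%). The falls included SLC39A9 at -1.08 ± 0.12, SLC44A5 at -0.94 ± 0.12, SLC38A1 at -0.84 ± 0.11, SLC46A1 at -0.77 ± 0.11 and SLC19A2 at -0.73 ± 0.13. The rises were led by SLC16A9 at 1.26 ± 0.27, SLC28A3 at 1.18 ± 0.31, SLC6A9 at 1.11 ± 0.14, SLC25A13 at 0.83 ± 0.13, SLC25A10 at 0.82 ± 0.11 and SLC1A4 at 0.79 ± 0.14. Among the 35 mitochondrial carriers 7 rose (with the batch block 12 rose and 2 fell), and after rescaling SLC25A10, SLC25A40 and SLC25A13 passed (adjusted p = 0.0121, 0.0123 and 0.0234) and SLC25A15, SLC25A11, SLC25A17 and SLC25A1 did not (0.0546, 0.101, 0.143 and 0.147). Calls numbered 0, 2, 1 and 11 without siLATS1/2 replicate 1 or 2 or siLATS1/2/p53 replicate 1 or 2, and 17 without either sip53 library.

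Relative to sip53, 9 carriers rose (4.84%; background 2.54%) and 5 fell (2.69%; background 1.12%) in siLATS1/2/p53, 14 in all (7.53%; background 3.66%), and with the batch block 66 were called (35.5%; background 22.1%). This comparison asks what LATS1/2 siRNA adds to p53 knockdown. The rises included SLC12A7 at 1.21 ± 0.15, SLC44A2 at 1.19 ± 0.09, SLC16A13 at 0.99 ± 0.17, SLC6A9 at 0.96 ± 0.14 and SLC25A29 at 0.80 ± 0.16. SLC16A7 fell by 1.21 ± 0.14, SLC18A2 by 0.87 ± 0.18, SLC35A1 by 0.72 ± 0.12, and SLC36A4 and SLC38A1 by 0.58 each (standard errors 0.10 and 0.11). The exonic overlap of SLC18A2 with another tested gene limits its value here too. SLC44A2 was called whichever single library was left out, and the number of calls was 2 or 3 without any one sip53 or siLATS1/2/p53 library and 5 without either siLATS1/2 library. The comparisons with the combined knockdown share its libraries, and those with siControl share the siControl libraries, so they are not independent of each other.

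For the interaction, 0 of 186 carriers passed (0%; background 0%), with 11 at an unadjusted p under 0.05 and 0.74 as the smallest adjusted p in limma. With the batch block 8 passed (4.3%; background 2.03%). Without the block, a difference between the responses to LATS1/2 siRNA with and without p53 siRNA was not detectable for any carrier.

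Genes of related function were counted beside the carriers, and their counts are to be read against the share of all tested entries that rose and fell: 9.07% and 5.48% in siLATS1/2/p53, 2.81% and 4.89% in siLATS1/2, and 1.76% and 2.1% in sip53. With the batch block 39.2%, 32% and 26% of all tested entries were called in the same order. Of 27 ABC transporters tested, which pump substrates with ATP, 5 rose and 2 fell in siLATS1/2/p53, 3 rose and 2 fell in siLATS1/2 and 1 fell in sip53, and with the batch block 15, 14 and 6 were called. ABCA3, a lipid transporter, rose by 1.31 ± 0.14 in siLATS1/2/p53 and by 1.44 ± 0.14 in siLATS1/2, and ABCA12 fell by 1.36 ± 0.09 in siLATS1/2/p53 and by 1.10 ± 0.09 in sip53. Among 21 solute carriers named with another letter, 1 rose and 4 fell in siLATS1/2/p53, 1 rose and 1 fell in siLATS1/2 and 2 fell in sip53, and with the batch block 11, 7 and 10 were called. SLC35B4, a nucleotide sugar carrier, fell by 0.99 ± 0.08 in siLATS1/2/p53 and by 0.83 ± 0.08 in sip53. Of 13 metal handling genes tested, 2 rose and 3 fell in siLATS1/2/p53, 1 rose and 5 fell in siLATS1/2 and 1 fell in sip53, and with the batch block 8, 8 and 5 were called. The metallothionein MT2A, which binds zinc and copper, fell by 1.25 ± 0.12 in siLATS1/2/p53, 1.24 ± 0.12 in siLATS1/2 and 0.56 ± 0.12 in sip53, and HMOX1, which degrades heme, rose by 1.09 ± 0.20 in siLATS1/2/p53 and 0.90 ± 0.20 in siLATS1/2.

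Of 31 genes of the ATF4 and amino acid response, 4 rose and 6 fell in siLATS1/2/p53, 2 rose and 3 fell in siLATS1/2 and 2 fell in sip53, and with the batch block 19, 11 and 12 were called. They did not move one way: ATF3 rose by 1.25 ± 0.18 in siLATS1/2/p53 and 1.09 ± 0.18 in siLATS1/2, and TRIB3 fell by 0.43 ± 0.09 and 0.66 ± 0.09. SESN2, which is also a p53 target, fell by 0.66 ± 0.11 in siLATS1/2/p53 and 0.81 ± 0.11 in sip53. Of 19 glycolysis genes 1 fell in siLATS1/2/p53, 2 fell in siLATS1/2 and 0 passed in sip53, and with the batch block 4 rose and 4 fell in siLATS1/2/p53, 8 fell in siLATS1/2 and 1 rose in sip53. The regulator PFKFB3 fell by 0.41 ± 0.08 in siLATS1/2/p53 and 0.52 ± 0.08 in siLATS1/2, where SLC2A1 rose. Of 12 genes of cystine and glutathione defence, 3 rose in siLATS1/2/p53 and 1 rose and 1 fell in siLATS1/2, and with the batch block 6, 4 and 4 were called in siLATS1/2/p53, siLATS1/2 and sip53. None of 5 sodium pump subunits passed in any knockdown, and with the batch block 3 rose in siLATS1/2/p53, 1 rose and 1 fell in siLATS1/2 and 1 rose in sip53.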

How the data were processed

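Polyadenylated RNA of MCF10A cells was sequenced in 8 libraries, 2 per group, from 2 independent batches of cells. Per the labels' protocols the libraries were made with an Illumina TruSeq RNA kit (which does not keep strand) and multiplexed on a lane. Per the submitters' processing notes TopHat and hg19 were used; the sources used here do not give the counter, the annotation, the scaling or the reason for a floor. The deposited values are log2 levels per entry on which the authors' files show a floor of 5 (32 on the linear scale), which understates changes of low genes. The base of 2 was taken from the even spacing of low linear values. The spacing was the same for all genes, so values are not per length. It ranged from 0.64 to 2.2 between libraries and was widest in siControl-1 and siLATS1/2/p53-1; depth was not given, no whole reads were recovered, and precision is limited by the 2 libraries a group.

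Differences came from limma 3.58.1 (R 4.3.3, trended variance), with all 4 groups fitted together (4 residual degrees of freedom) on the 12315 of 29991 entries that exceeded the floor in 2 or more libraries, with Benjamini-Hochberg adjustment over them and a threshold of 0.05. The fit was tested on simulated data that held no batch effect, so that test does not bear on the shared batches of cells. No pseudocount was added. The labels give same-numbered libraries a shared batch of cells, and deviations of same-numbered libraries from their group means correlated between 0.565 and 0.726 over all tested entries, so values from a blocked fit stand beside the printed counts and calls that it changes. Alternatives included rescaling (medians of ratios), other filters and pseudocounts, no trend, only the groups compared, and leaving out libraries.

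Carriers were grouped by substrate from textbook roles of SLC families. The members, the gene lists and the substrate groups were chosen with earlier results of these data known. Genes named were the largest called changes per comparison, the member with the smallest p per substrate group, the highest levels and fixed readouts. Exonic lengths and overlaps came from GENCODE release 29, not the authors' annotation; over 20% of the exonic bases of 8 carriers are shared with another tested gene. Promoters came from RefSeq (GRCh38.p14), for 151 of 186. Results of some genes taken by the naming rule are left out of the text.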

Additional observations from a re-analysis of the deposited data

Results flagged for a closer look

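With the batch as a block, 8 carriers differed in their response to LATS1/2 siRNA with and without p53 siRNA, given as the interaction on the log2 scale with its standard error; none passed without the block, where the smallest adjusted p was 0.74. The interaction was 0.90 ± 0.10 for the sulfate carrier SLC26A2 (adjusted p = 0.00257), 0.62 ± 0.10 for the cationic amino acid carrier SLC7A2 (0.0119), 0.61 ± 0.12 for the ornithine carrier SLC25A15 (0.0235), 0.58 ± 0.11 for citrin, SLC25A13 (0.0251), 0.61 ± 0.13 for SLC37A2 (0.0333) and 0.41 ± 0.09 for SLC39A14 (0.038). It was -1.08 ± 0.21 for SLC27A2 (0.0251) and -0.47 ± 0.11 for the sodium bicarbonate cotransporter SLC4A7 (0.0473). With the block and rescaling together 6 carriers passed: SLC26A2, SLC7A2, SLC25A15, SLC27A2 and SLC4A7 again, and SLC46A1, the folate transporter, at -0.66 (adjusted p = 0.0446), while SLC25A13, SLC37A2 and SLC39A14 missed the threshold (adjusted p = 0.0535, 0.0994 and 0.115).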

How the results depend on the processing

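Counts of called carriers are given for siLATS1/2, sip53 and siLATS1/2/p53 against siControl, then siLATS1/2/p53 against siLATS1/2 and against sip53. Against 21, 6, 35, 27 and 14 as reported, the replicate block gave 73, 60, 94, 85 and 66, and 8 for the interaction. The block with rescaling gave 73, 58, 91, 86 and 68, and 6 for the interaction. These totals hide a shift between rises and falls. With the block alone 38 and 35, 37 and 23, 58 and 36, 56 and 29, and 39 and 27 rose and fell. With rescaling added 48 and 25, 26 and 32, 46 and 45, 29 and 57, and 37 and 31 did so. Blocked rises and falls printed for substrate groups are without rescaling and depend on this choice. The replicate block moved 49 values of named carriers past the threshold and none below it. Without any filter 1, 1, 7, 3 and 1 were called, and with only the groups compared 0, 0, 9, 0 and 0. Leaving out 1 library gave 2 to 16, 0 to 2, 16 to 29, 0 to 25 and 2 to 13, and 0 for the interaction. Leaving out both libraries of widest spacing, chosen after the data were seen, gave 0 in each comparison; these fits have fewer residual degrees of freedom. Rescaling alone, no trend, pseudocounts of 1 and 32, and filters of 1 or 4 libraries kept each of the total counts within 1.5 times. The split into rises and falls was less stable to rescaling alone. It went from 18 and 9 to 7 and 13 for siLATS1/2/p53 against siLATS1/2. Against siControl it went from 12 and 9 to 18 and 7 in siLATS1/2 and from 3 and 3 to 1 and 5 in sip53. No value of a named carrier reversed under any alternative. With 2 libraries a group, a missed threshold does not show that levels are equal.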
